A study of Mus musculus with 2 samples.

Results

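Transcripts of 7 genes were followed in a pair of mouse striatal cell lines: Atxn1, Atxn2, Atxn3, Atxn7, Atn1 and Tbp, whose human counterparts cause polyglutamine diseases when their CAG repeat expands, and Atxn1l, the close relative of Atxn1. They were taken by symbol from the authors' deposited table of 23176 genes, and all 7 were found and carried a test. STHdhQ111 cells have the genotype HdhQ111/Q111, with a long CAG tract in both copies of huntingtin (Htt), and STHdhQ7 cells are HdhQ7/Q7. The labels give both lines as derived from embryonic day 14 striatum, of 129SvEv/CD1 strain background and at fewer than 15 passages. Both were grown at 33 °C and held at 39 °C for 2 days before harvest so that division stopped. Polyadenylated RNA was sequenced, and the 3 replicates named in each title are given as 1 combined value per line, in FPKM (a fragment count corrected for transcript length and library size). No spread between replicates can be computed from these values. One line stands against the other, so that the effect of the huntingtin genotype and other differences between these 2 lines cannot be told apart.

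Polyglutamine diseases are inherited neurodegenerative disorders in which a run of CAG codons inside a coding sequence lengthens and the protein carries an expanded glutamine tract. Huntington's disease is one of them. Others are the spinocerebellar ataxias of the ataxin genes and of TBP, and dentatorubral-pallidoluysian atrophy, caused by ATN1. The proteins are otherwise unrelated. Ataxin-1 and its relative work with the DNA-binding repressor capicua, ataxin-2 binds RNA, ataxin-3 cleaves ubiquitin chains, ataxin-7 belongs to the SAGA coactivator, atrophin-1 is a nuclear corepressor, and TBP starts transcription. All of these genes are widely expressed, in the striatum among other tissues.

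The feature that unites the disease genes is their glutamine run, and the mouse reference shows how short it is in most of them. The longest in-frame run of glutamine codons (CAG or CAA) in the coding sequences of 6 of the genes is given here from the GENCODE M21 transcripts on the GRCm38 build, with huntingtin for comparison. Capitals mark the run and lower case the coding bases on either side, written 5′ to 3′ on the strand of the gene.
Tbp: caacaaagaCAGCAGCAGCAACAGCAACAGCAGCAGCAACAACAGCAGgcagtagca
Atxn3: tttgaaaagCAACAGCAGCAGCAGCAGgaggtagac
Atxn7: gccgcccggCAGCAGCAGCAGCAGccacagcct
Atxn1: ctgagcggcCAGCAGCAAgcaatcacc
Atxn2: cccaccggaCAGCAGCAAagccagcat
Atxn1l: gttggtgaaCAGCAGagcaaagtg
Htt: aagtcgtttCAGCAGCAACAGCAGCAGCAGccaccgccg

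Tbp had the longest run, with 13 glutamine codons at codons 58 to 70 of 316 (chr17:15504391-15504429, plus strand, exon 3). Of these, 9 were CAG and 4 were CAA, and no more than 3 CAG codons stood in a row. Atxn3 had a run of 6 codons from codon 292 (chr12:101926563-101926580, minus strand, exon 10) and Atxn7 a run of 5 uninterrupted CAG codons from codon 25 (chr14:14013156-14013170, plus strand, exon 2). In Atxn1 (chr13:45567080-45567088, minus strand, exon 7) and Atxn2 (chr5:121810946-121810954, plus strand, exon 22) no run was longer than 3 codons. Atxn1l had no more than 2 in a row (chr8:109732039-109732044, minus strand, exon 4). Among 11047 tested genes with a scanned coding sequence, 2.87% held a run of 4 codons or more, so that Tbp, Atxn3 and Atxn7 stand in the long tail while Atxn1, Atxn2 and Atxn1l do not. The run of Htt was 7 codons in exon 1 (chr5:34761958-34761978, plus strand), the length in the name of the STHdhQ7 line. These letters are those of the C57BL/6J reference and not of the sequenced lines, and the longest run need not lie where the human repeat does.

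All 7 genes were expressed in both lines, over a range of 28.2-fold in STHdhQ111 and 27.0-fold in STHdhQ7. Atn1 was the most abundant by far, above 90.8% of tested genes in STHdhQ111 and 88.6% in STHdhQ7. It made up 56.1% of the summed FPKM of the 7 genes in STHdhQ111 and 51.0% in STHdhQ7. In GENCODE M21, however, only 16.6% of its stretches of 36 bases occur in no other gene's transcripts. All the shared stretches lie in Gm45234, an overlapping gene on the same strand. How far the listed level reflects Atn1 alone was not tested. In STHdhQ111 the order of FPKM was Atn1, Atxn2, Atxn1l, Tbp, Atxn1, Atxn3 and Atxn7. In STHdhQ7 Tbp stood above Atxn1l and the order was otherwise the same. The gap in log2 FPKM between neighbours was set against the larger standard error of the 2 genes' log2 fold changes, as a rough guide only. That error belongs to a change between lines and not to a gap between genes within a line. A wider gap therefore does not show that neighbours differ. Neighbours closer than that error were Atxn1l and Tbp and Atxn3 and Atxn7 in STHdhQ111, and Atxn2 and Tbp, Tbp and Atxn1l, and Atxn1 and Atxn3 in STHdhQ7. The lowest 3 genes, Atxn1, Atxn3 and Atxn7, lay below the median tested gene (9.43 FPKM in STHdhQ111 and 9.81 FPKM in STHdhQ7) in both lines.

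**Figure D1:**
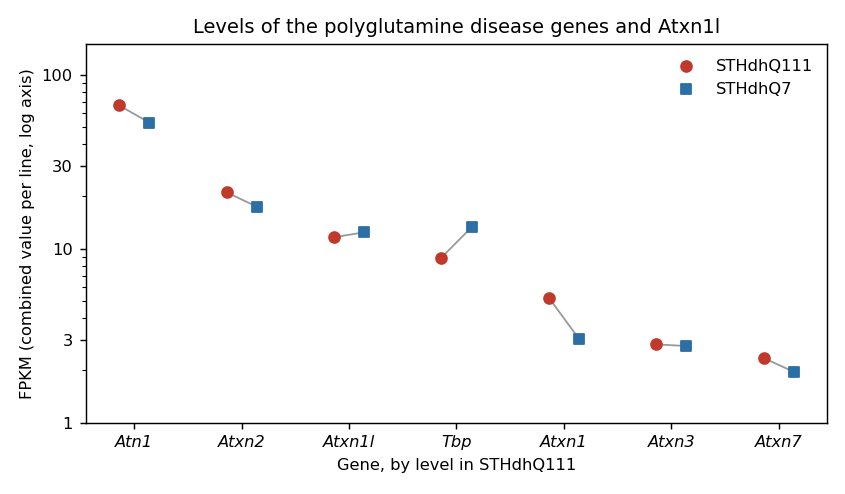
FPKM of the 7 genes on a log axis, with 1 combined value per line (red circles STHdhQ111, blue squares STHdhQ7) and genes ordered by their level in STHdhQ111. The lines joining the points are short beside the distance between genes: the largest ratio between lines is 1.72-fold in Atxn1, against a 28.2-fold range between genes.

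The comparison of STHdhQ111 with STHdhQ7 asks whether expanded huntingtin goes with a change in the other polyglutamine genes. None of the 7 was called, where called means a q of 0.05 or less in the authors' Cuffdiff test. Over all genes, 13.5% of the 12740 with a test were called in the authors' deposited table: 6.35% were higher in STHdhQ111 and 7.17% were lower. With 7 genes, a count of 0 is close to what that share gives and is no result about these genes. None of the 7 had an unadjusted p under 0.05 in the authors' deposited table either, against 21.2% of tested genes. FPKM was higher in STHdhQ111 for 5 genes and lower for 2, while 45.5% of all tested genes were higher. The authors' deposited table gives the 7 genes a median log2 fold change of 0.26, against -0.06 for tested genes with a fold change. The median size of the change without its sign was 0.27 against 0.40. Neither difference was tested, and with 7 genes they are no result about these genes.

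Precision decides what this comparison could have shown. Dividing each log2 fold change by its test statistic gives a standard error implied by the authors' deposited table. It lay between 0.37 (Atxn1l) and 0.49 (Atxn3) for these genes, and its median over tested genes was 0.44. At those errors a change would have had to reach 2.02-fold in Atxn1l and 2.52-fold in Atxn3 to be called. For 5 of the 7 genes the fold change was smaller than its own implied error. The 95% normal intervals of all 7 spanned no change.

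**Figure D2:**
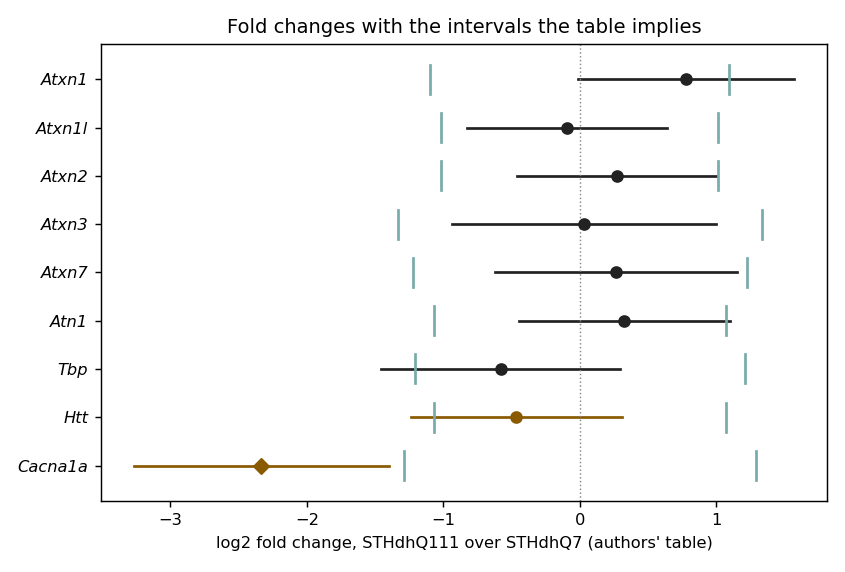
Log2 fold change of each gene, STHdhQ111 over STHdhQ7, from the authors' deposited table, with the 95% normal interval from the implied standard error (horizontal bars) and the change needed for a call at that error (teal ticks). The 7 genes (black) all have intervals across 0, with Atxn1 and Tbp farthest from it on either side, and of the other polyglutamine disease genes shown (brown) Cacna1a is called (diamond) and Htt is not.

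Atxn1, whose protein silences genes together with capicua and whose expansion causes SCA1, showed the largest change of the 7. It was listed at 5.23 FPKM in STHdhQ111 and 3.04 FPKM in STHdhQ7, so the STHdhQ111 value was the higher by 1.72-fold. The authors' deposited table gives Atxn1 a log2 fold change of 0.78 (implied standard error 0.40, p = 0.053, q = 0.246). Its interval ran from 0.993-fold to 2.97-fold and so just took in no change. Of tested genes with a fold change, 72.0% changed by less. The locus (chromosome 13, 45645125 to 46060360, mm9) is the longest of the 7 at 415 kb.

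Atxn1l encodes the ataxin-1-like protein, which shares the capicua-binding domain and is not a repeat disease gene. It was listed at 11.6 FPKM in STHdhQ111 and 12.4 FPKM in STHdhQ7, nearly level. The authors' deposited table gives it a log2 fold change of -0.09 (implied standard error 0.37, q = 0.98), and the interval from 0.563-fold to 1.56-fold was the narrowest of the 7 on the log scale. Atxn1 therefore amounted to 0.449 of Atxn1l in STHdhQ111 and 0.245 of it in STHdhQ7. The log2 fold changes of these paralogues differed by 0.88 with an implied standard error of 0.55, which is within 2 such errors of no difference. Their summed FPKM was 16.9 in STHdhQ111 and 15.5 in STHdhQ7. Atxn1l lies on chromosome 8 at 112250351 to 112261639 (mm9).

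Atxn2 encodes an RNA-binding protein that associates with poly(A)-binding protein and stress granules, and its expansion causes SCA2. It was listed at 21.1 FPKM in STHdhQ111 and 17.4 FPKM in STHdhQ7. The higher STHdhQ111 value was within the implied error: the authors' deposited table has a log2 fold change of 0.27 (implied standard error 0.37, q = 0.868), and the interval was 0.727-fold to 2.01-fold. Atxn2 lies on chromosome 5 at 122161618 to 122264959 (mm9).

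Atxn3, the deubiquitinase whose expansion causes SCA3 (Machado-Joseph disease), was the most nearly equal. It was listed at 2.82 FPKM in STHdhQ111 and 2.76 FPKM in STHdhQ7. Its entry in the authors' deposited table is a log2 fold change of 0.03 (implied standard error 0.49, q = 0.995), and only 4.29% of tested genes with a fold change changed by less. The interval of 0.524-fold to 1.99-fold is still wide enough to hold a near doubling or halving. Atxn3 lies on chromosome 12 at 103157111 to 103196453 (mm9).

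Atxn7, which anchors the deubiquitinase module of SAGA and causes SCA7 when expanded, was the least abundant of the genes. It was listed at 2.36 FPKM in STHdhQ111 and 1.96 FPKM in STHdhQ7. In the authors' deposited table it has a log2 fold change of 0.26 (implied standard error 0.45, q = 0.912), and the interval was 0.65-fold to 2.22-fold. Atxn7 lies on chromosome 14 at 14845005 to 14939815 (mm9).

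Atn1, which encodes atrophin-1, a corepressor of nuclear receptors, was listed at 66.5 FPKM in STHdhQ111 and 53.0 FPKM in STHdhQ7. The STHdhQ111 value was the higher by 1.25-fold, and the authors' deposited table has a log2 fold change of 0.33 (implied standard error 0.40, q = 0.833). The interval was 0.733-fold to 2.14-fold. Atn1 lies on chromosome 6 at 124692562 to 124706505 (mm9). In GENCODE M21 only 16.6% of its words of 36 bases were found in no other gene's transcripts, all the shared ones lying in 1 overlapping gene on the same strand, Gm45234, which is not a row of the authors' deposited table.

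Tbp encodes the TATA-binding protein, which seats the TFIID complex on promoters and is widely used as a reference gene in quantitative PCR. Its expansion causes SCA17. It was listed at 8.89 FPKM in STHdhQ111 and 13.3 FPKM in STHdhQ7, the lower value being in STHdhQ111 by 1.49-fold. The authors' deposited table has a log2 fold change of -0.58 (implied standard error 0.45, p = 0.193, q = 0.59), and the interval ran from 0.365-fold to 1.23-fold. Tbp lies on chromosome 17 at 15636852 to 15654391 (mm9).

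**Figure D3:**
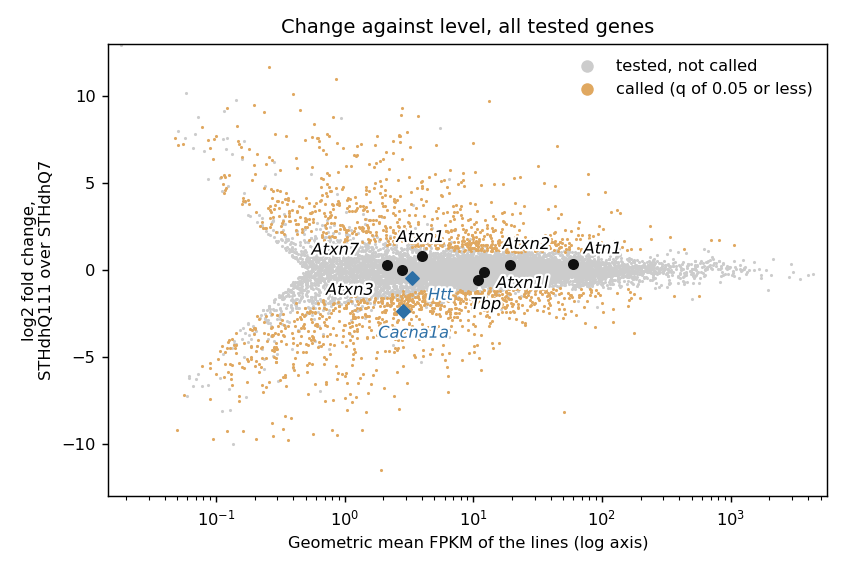
Log2 fold change, STHdhQ111 over STHdhQ7, against the geometric mean FPKM of the lines on a log axis, for every tested gene above 0 in both lines (grey not called, orange called). The 7 genes (black circles) lie in the grey band from the low to the upper range of expression, Htt (blue diamond) lies there too, and Cacna1a (blue diamond) lies among the called genes below it.

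No locus in the authors' deposited table overlapped any of the 7, and the nearest one stood between 1464 bases (Grcc10, beside Atn1) and 5729 bases (Trip11, beside Atxn3) away. None of those nearest genes was called. In the later GENCODE M21 annotation, exons on the opposite strand overlap Atxn1 (Gmpr), Atxn2 (Sh2b3) and Tbp (Pdcd2). The library method is not described as marking strand, so reads of such overlaps cannot be told apart. Gmpr was listed at 7.66 FPKM in STHdhQ111 and 13.5 FPKM in STHdhQ7, opposite in direction to Atxn1. Sh2b3 was listed at 19.6 FPKM in STHdhQ111 and 10.7 FPKM in STHdhQ7, the same direction as Atxn2. The values of Pdcd2 were not compared with those of Tbp. Of the words of 36 bases of the genes other than Atn1, 99.2% (Tbp) to 100% (Atxn1l and Atxn3) occurred in no other gene's transcripts.

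The genes with the nearest pair of levels, by Euclidean distance in log2 FPKM over the 2 lines among 11420 named tested genes, were Rpusd3 for Atxn1, Gabpa for Atxn1l, Sp3 for Atxn2, Klhl28 for Atxn3, Rasa2 for Atxn7, Ccdc56 for Atn1 and Nucb2 for Tbp. Rpusd3, at 5.10 FPKM in STHdhQ111 and 2.99 FPKM in STHdhQ7, was the most distant of them from its partner, by 0.0434. With 2 values per gene, such likeness says little more than that the levels are common ones.

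Of 2 polyglutamine disease genes outside the set, 1 was called lower. Cacna1a, the pore subunit of the P/Q-type calcium channel and the SCA6 gene, fell to 1.28 FPKM in STHdhQ111, against 6.44 FPKM in STHdhQ7. In the authors' deposited table this is a log2 fold change of -2.33 (implied standard error 0.48, q = 2.5e-05). Htt itself was listed at 2.83 FPKM in STHdhQ111 and 3.91 FPKM in STHdhQ7 and was not called (q = 0.663 in the authors' deposited table). The share of tested genes called lower was 7.17%. The interval of Cacna1a lies below those of all 7 genes but Tbp, whose lower end of -1.45 on the log2 scale passes the upper end of Cacna1a at -1.40.

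The genes of proteins that work with ataxin-1 were mostly uncalled. Of 12 tested genes of the ataxin-1 and capicua complex and its regulators, 1 was called lower, none higher and 11 were not called, beside 13.5% called among all tested genes. Cic, which encodes capicua, was listed at 40.0 FPKM in STHdhQ111 and 34.0 FPKM in STHdhQ7 and was not called. Rps6ka5, the kinase MSK1, known to phosphorylate ataxin-1, fell to 1.89 FPKM in STHdhQ111, against 5.09 FPKM in STHdhQ7 (q = 0.0266 in the authors' deposited table). Ywhae, a 14-3-3 protein that binds phosphorylated ataxin-1, was listed at 562.8 FPKM in STHdhQ111 and 272.5 FPKM in STHdhQ7 and missed the threshold (q = 0.0771 in the authors' deposited table). Ywhaz, another 14-3-3 gene, had the opposite direction, at 194.4 FPKM in STHdhQ111 and 287.4 FPKM in STHdhQ7, and was not called either.

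Of the 16 listed capicua-repressed targets, all tested, 7 were called lower, none higher and 9 were not called. Over all tested genes 7.17% were called lower and 13.5% were called in all. The median log2 ratio of (FPKM + 0.5) was -1.28, against -0.05 over all tested genes. Etv1, Etv4 and Etv5, ETS transcription factors, fell to 0.0277, 2.94 and 3.38 FPKM in STHdhQ111, against 2.40, 19.1 and 15.6 FPKM in STHdhQ7. Spry4, an inhibitor of growth factor signalling, fell to 0.0927 FPKM in STHdhQ111, against 2.41 FPKM in STHdhQ7. The cyclin gene Ccnd1 fell to 28.4 FPKM in STHdhQ111, against 272.4 FPKM in STHdhQ7. The remaining called genes were Spred1 and Spred2. Egr1 and Por were the most abundant uncalled genes, at 38.2 and 43.5 FPKM in STHdhQ111, against 53.1 and 64.0 FPKM in STHdhQ7. The neuropeptide precursor gene Vgf was the 1 target of 16 with the higher value in STHdhQ111, at 0.676 FPKM, against 0.173 FPKM in STHdhQ7. It missed the threshold (q = 0.0598 in the authors' deposited table), and at a q of 0.1 the list holds 1 gene called higher and 8 lower. Several of these genes had been seen to be lower in these data when the list was drawn up, so their count is not independent evidence. Most of them are also known to respond to ERK signalling, and Ccnd1 is a cell cycle gene. The part of either was not tested.

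Genes around ataxin-2 and ataxin-3 held no calls, in lists so short that the background of 13.5% would give few. Of 12 tested ataxin-2 partners in RNA handling none was called, and the median log2 ratio was -0.22. Pabpc1, the poly(A)-binding protein to which ataxin-2 attaches, was listed at 790.0 FPKM in STHdhQ111 and 557.8 FPKM in STHdhQ7. The stress granule gene Caprin1 was listed at 86.0 FPKM in STHdhQ111 and 82.3 FPKM in STHdhQ7. Of 15 tested ataxin-3 partners in ubiquitin handling none was called, and the median was 0.04. Vcp, the segregase that ataxin-3 binds, was listed at 146.9 FPKM in STHdhQ111 and 185.3 FPKM in STHdhQ7, and the ubiquitin ligase Stub1 at 74.8 FPKM in STHdhQ111 and 96.2 FPKM in STHdhQ7. The authors' Cuffdiff test gave no unadjusted p under 0.05 in either list, against 21.2% of all tested genes.

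The complexes around ataxin-7 and TBP held 1 call, Taf1, beside the background of 13.5%. None of 21 tested SAGA genes was called, and the median log2 ratio was -0.05. The acetyltransferase gene Kat2b alone among them had an unadjusted p under 0.05 (p = 0.0299 in the authors' deposited table), at 5.03 FPKM in STHdhQ111 and 9.46 FPKM in STHdhQ7. Of all tested genes, 21.2% had an unadjusted p under 0.05. The splicing factor subunits shared by SAGA, Sf3b3 and Sf3b5, were its most abundant genes by the mean of the lines. Sf3b3 was listed at 70.4 FPKM in STHdhQ111 and 70.5 FPKM in STHdhQ7. Among 28 tested TFIID genes and TBP regulators 1 was called lower, none higher and 27 were not called, with a median of -0.11. Taf1, the largest TFIID subunit, fell to 8.73 FPKM in STHdhQ111, against 20.0 FPKM in STHdhQ7 (q = 0.0172 in the authors' deposited table). Taf15 was listed at 72.8 FPKM in STHdhQ111 and 143.1 FPKM in STHdhQ7 and missed the threshold (q = 0.0706 in the authors' deposited table). Drap1, a subunit of the NC2 inhibitor of TBP, was listed at 247.3 FPKM in STHdhQ111 and 214.8 FPKM in STHdhQ7 and was not called.

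Of 15 tested atrophin-1 partners, 1 was called higher, 2 lower and 12 were not called, 20% in all beside 13.5% of all tested genes. The called genes were transcription factors and a corepressor. The orphan nuclear receptor genes Nr2f1 and Nr2f2 fell to 0.165 and 7.28 FPKM in STHdhQ111, against 42.6 and 38.4 FPKM in STHdhQ7. Runx1t1, a corepressor of the ETO family, rose to 3.30 FPKM in STHdhQ111, against 0.0557 FPKM in STHdhQ7. For the list as a whole the median log2 ratio was -0.09. The most abundant uncalled partners were the ubiquitin ligase gene Nedd4, at 225.3 FPKM in STHdhQ111 and 239.4 FPKM in STHdhQ7, and Baiap2.

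No call was made among the 10 tested genes that share a name or a family with these and lack the polyglutamine disease repeat. None had an unadjusted p under 0.05 in the authors' Cuffdiff test, against 21.2% of all tested genes. Atxn2l was listed at 49.5 FPKM in STHdhQ111 and 47.7 FPKM in STHdhQ7, and Atxn10, whose human repeat disease is not a polyglutamine one, at 145.4 FPKM in STHdhQ111 and 126.0 FPKM in STHdhQ7. The median log2 ratio of these 10 genes was 0.06. Counting each gene of the 8 pathway lists once, 123 were tested, 1 was called higher and 11 lower, 9.76% in all beside the background of 13.5%. This count includes the capicua targets, several of which had been seen to be lower when their list was drawn up. Outside the capicua targets 5 of 107 were called.

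**Figure D4:**
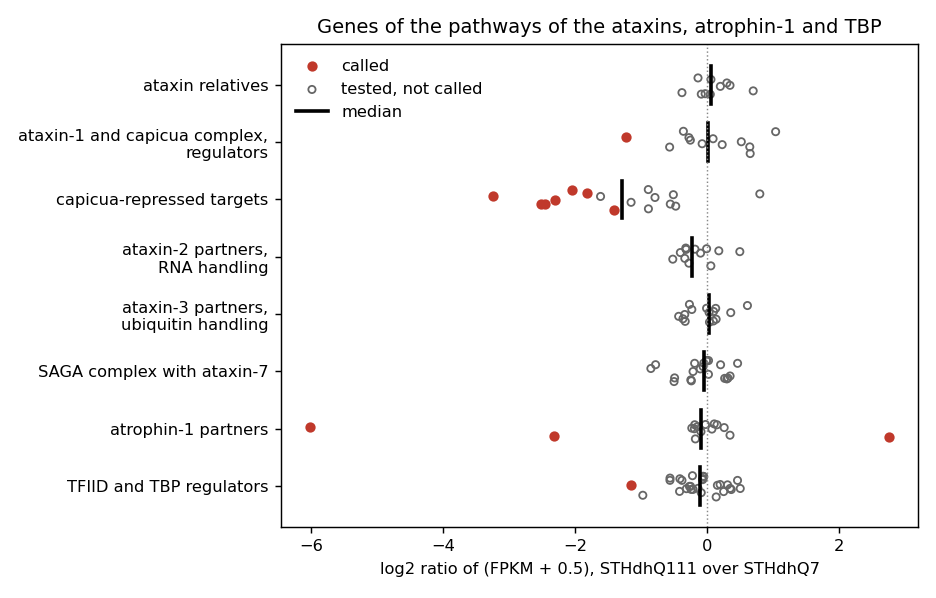
Log2 ratio of (FPKM + 0.5), STHdhQ111 over STHdhQ7, of the tested genes in each of the 8 pathway lists (open circles not called, red circles called, black bars medians; vertical scatter within a list only separates points). The medians lie between -0.22 and 0.06 except that of the capicua-repressed targets at -1.28, where 7 of 16 genes are called. Several of those targets had been seen to be lower when the list was drawn up.

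The lines carry few marks of striatal neurons. Of 13 listed medium spiny neuron markers, 9 were under 0.5 FPKM in both lines, and Drd1 (listed as Drd1a) was at 0 in both. Of the 4 tested, Rgs9 fell to 0.0624 FPKM in STHdhQ111, against 0.629 FPKM in STHdhQ7, and Foxp1 rose to 22.4 FPKM in STHdhQ111, against 9.35 FPKM in STHdhQ7. Penk, at 6.49 FPKM in STHdhQ111 and 2.85 FPKM in STHdhQ7, was not called. Nor was Pde10a, at 0.630 FPKM in STHdhQ111 and 0.950 FPKM in STHdhQ7. Of 8 pan-neuronal markers in the table, 6 were under 0.5 FPKM in both lines, as were 5 of 6 microglial and leukocyte markers. Among the exceptions, the neuronal gene Tubb3, at 3.62 FPKM in STHdhQ111 and 2.42 FPKM in STHdhQ7, was not called. Others were called. The neuronal gene Stmn2 fell to 0.0563 FPKM in STHdhQ111, against 33.5 FPKM in STHdhQ7, and Cd68, a lysosomal protein of macrophages, rose to 72.4 FPKM in STHdhQ111, against 26.5 FPKM in STHdhQ7. The summed FPKM of 6 neural progenitor markers was 2.96 in STHdhQ111 and 125.3 in STHdhQ7, with 3 called lower, and that of 9 mesenchymal and fibroblast markers was 2613 in STHdhQ111 and 999.5 in STHdhQ7, with 3 called higher. Col1a1 (1487 FPKM in STHdhQ111 and 451.9 FPKM in STHdhQ7) and Col1a2 (532.6 FPKM in STHdhQ111 and 11.5 FPKM in STHdhQ7) make up most of that difference. The other 7 mesenchymal markers sum to 593.0 FPKM in STHdhQ111 and 536.1 FPKM in STHdhQ7, and Acta2 had the lower value in STHdhQ111, at 311.0 FPKM, against 341.6 FPKM in STHdhQ7. The part of this difference between the lines in the values above was not tested. In such bulk values, fewer expressing cells and less RNA per cell cannot be told apart. The depth of the libraries is unknown.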

How the data were processed

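Polyadenylated RNA of STHdhQ111 and STHdhQ7 cells was sequenced. Per the submitters' processing notes, reads were processed on the mm9 build with Bowtie 0.12.7, TopHat 1.4.0 and Cufflinks 2.0.2, and compared with Cuffdiff. Its version, all options and the annotation were not given in the sources used here. Per the file headers, the authors deposited 1 FPKM value per line and gene, combined over replicates, with a log2 fold change, a test statistic (a score whose sign is opposite to the fold change in this table), a p-value and a q-value. The labels do not state whether replicates are separate cultures, and they may be technical. The authors' p-values rest on these replicates and on the error model of their test. They cannot cover spread beyond these replicates. Of 23176 genes, 12740 were tested, and 93 of these have no fold change because either line was at 0.

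Calls use the authors' q of 0.05 or less. The deposited p-value matched the two-sided normal tail of the statistic to within 2.7e-06, and the q-value its own Benjamini-Hochberg recalculation to within 2.2e-06, so the fold change over the statistic gives the implied standard error, from which 95% normal intervals (1.96 errors) and the smallest change that could be called (2.71 errors) were computed. Lists were described by calls and by the median log2 ratio with a pseudocount of 0.5, which makes changes of low genes look smaller. No set test was run. A gene of the fixed lists and a sequence are not reported here. Named list genes are those called (the 5 largest changes per direction and list) and up to 2 abundant uncalled ones. Cic, Spred1, Spred2, Vgf and Kat2b, and the markers named, were chosen after their values were seen. The members and lists were chosen with earlier results of these data known. Locus starts were read as 0-based and raised by 1. Glutamine runs were read from the longest complete coding sequence per gene in GENCODE M21. The implied errors, adjustments and calls were checked on simulated data, and the other steps were not. The simulated statistic was built from the implied error, so its recovery there was given in advance. Python 3.11.15, numpy 2.4.6, pandas 2.3.3, scipy 1.17.1 and matplotlib 3.10.9 were used.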

Additional observations from a re-analysis of the deposited data

How the results depend on the processing

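Each of the 7 log2 fold changes kept its direction in all of 56 results over other thresholds, adjustments, filters, scalings and pseudocounts. Thresholds, adjustments and filters leave the fold change as it was, and a pseudocount cannot turn its sign. Only recentring and equal FPKM sums could have changed a direction. None of the 7 was called in the 35 results that carry an adjusted p, where stricter settings could not have added a call. The other 21 (pseudocounts and equal FPKM sums) have no test. The largest move was 0.16 on the log2 scale, and the lowest adjusted p of any member was 0.2. Recentring used the median of 10681 expressed genes, -0.05. With a Benjamini-Yekutieli adjustment 1079 genes were called, 518 higher and 561 lower. Rps6ka5 and Taf1, the only calls of their lists, were lost (0 called in each list) at a q of 0.01 and under Benjamini-Yekutieli, and at a q of 0.1 each list held 2. The other 48 of 54 list counts stayed within 1.5 times or, in lists with no call, at 0. A stricter setting could give nothing else in those lists. No paired analysis was possible because the table holds 1 combined value per line, and no replicate could be left out for the same reason. Unknown depth and implied errors of 0.37 or more leave changes under about 2-fold undetectable.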

Other observations

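Glutamine runs longer than those of most ataxin genes are coded by many mouse genes, and these were looked at in the same comparison. The rule was chosen after the values of the ataxin genes were seen. Of 21500 genes with a complete coding sequence in GENCODE M21, 77 held a run of 10 or more glutamine codons, and 48 of these were tested, Tbp among them. Of the 48, 2 were called higher, 4 were called lower and 42 were not called, 12.5% in all against 14.4% of 10999 tested genes with a shorter run. Their median log2 ratio of (FPKM + 0.5) was -0.002, against -0.06 for the genes with a shorter run.

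The 2 genes called higher were Foxp1, a forkhead repressor with a run of 37 codons, at 22.4 FPKM in STHdhQ111 and 9.35 FPKM in STHdhQ7, and Bhlha15, a secretory cell factor with 10 codons, at 1.22 FPKM in STHdhQ111 and 0.0453 FPKM in STHdhQ7. The 4 called lower were the Notch coactivator Maml3, at 1.35 FPKM in STHdhQ111 and 5.14 FPKM in STHdhQ7, its relative Mamld1, at 0.0607 FPKM in STHdhQ111 and 1.01 FPKM in STHdhQ7, and the transcription factor genes Prdm8 and Cdx2. Prdm8 was listed at 0.349 FPKM in STHdhQ111 and 4.01 FPKM in STHdhQ7, and Cdx2 at 0.0575 FPKM in STHdhQ111 and 2.70 FPKM in STHdhQ7. The longest run among tested genes, 46 codons in the Notch coactivator gene Maml2, belonged to a gene listed at 4.21 FPKM in STHdhQ111 and 4.42 FPKM in STHdhQ7. The transcriptional coactivator genes Med12, Ncoa6 and Ncoa3, with runs of 33, 32 and 28 codons, were not called.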
